A study of Cynoglossus semilaevis with 6 samples.

Results

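A total of 6131 intron retention events were found among 66043 transcript events of all classes listed for 6 liver RNA-seq libraries. The members were all entries whose event type held the letters IR, which covers the retention of a single intron, the retention of several neighbouring introns, and the approximate versions of both. An event was the same in 2 libraries when chromosome, strand, start and end were identical. Each event comes as a pair. The retained form is a transcript that reads through the intron in 1 exon, and the spliced form is a transcript that removes it. For 100% of the events both forms were listed.

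The libraries were made from livers of female Cynoglossus semilaevis aged 10 months, the half-smooth tongue sole, a flatfish that tolerates a range of salinities. The trial lasted 60 days. The HS_L group stayed at a salinity of 30 ppt, the normal rearing salinity. For the LS_L group the salinity was lowered in daily steps to a target of 15 ppt. Each group had 3 libraries. Each library pooled 3 livers from 1 tank, so the spread within a group is a spread between tanks and not between fish. The sources name no genotype and no treatment other than salinity, apart from the anesthetic tricaine methanesulfonate at sampling. Both groups had been reared at 30 ppt before the trial.

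In intron retention an intron stays in the processed transcript while the exons around it are joined to the rest. A retained intron often brings a stop codon into the reading frame, and such a transcript can be held in the nucleus or degraded by nonsense-mediated decay, the pathway that removes transcripts with early stops. Genes for splicing factors, the SR proteins among them, are known in vertebrates for retained introns that limit their own output.

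The number of reads assigned to annotated features ranged from 16176689 to 19428740 per library. The defining hepatocyte genes were abundant in all libraries, with a summed RPKM (reads per kilobase of feature per 1000000 assigned reads) of 63659 to 120983 over 8 genes. Of 2 exocrine pancreas genes, both were detected, with a summed RPKM of 14.4, 63.6 and 57.8 in the LS_L libraries and 706, 2428 and 38.4 in those of the HS_L group. The 9 muscle genes summed to 5.39 to 65.3, and 8 ovary genes, of which bmp15 was at 0, to 1.67 to 258. Of 3 red cell genes alas2 was at 0, and the sum was 1.35 to 3.55. The event listings covered stretches of the genome only. Of 456 windows of 1000000 bases that hold annotated features, 183 (40.1%) had no event of any class, and 183 or 184 were empty in each library. The 17803 features (51.2% of 34751) that lie within reach of a listed event form the base of the shares of features and genes that carry events, and the rest was not analysed for events here. Tests on the RPKM table used features from the whole genome.

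The LS_L libraries 1, 2 and 3 listed 2062, 1767 and 1600 intron retention events, and the HS_L libraries 2102, 1695 and 1901. The 2 groups overlapped widely. The LS_L mean was 1810 ± 234 (SD, n = 3) and the HS_L mean 1899 ± 204 (SD, n = 3), a difference that the exact permutation test did not separate from the spread between tanks (two-sided p = 0.70, adjusted p = 0.70 over 4 tests, where 0.10 is the smallest p that 3 libraries against 3 allow). As a share of all listed events, intron retention took 6.04%, 5.27% and 4.81% in the LS_L libraries and 6.12%, 5.06% and 5.62% in those of the HS_L group (exact permutation test, two-sided, n = 3 per group, p = 0.70). The direction of both differences turned when LS_L library 3 or HS_L library 1 was left out, with the number then 15.2 and 11.7 events higher in the LS_L group and the share 0.0545 and 0.0331 percentage points higher.

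The number of events ran in reverse order of the reads assigned to annotated features. HS_L library 1, with the fewest assigned reads, listed the most events, and LS_L library 3, with the most reads, listed the fewest. Over the 6 libraries Pearson's r was -0.959 (exact permutation p = 0.00278, adjusted p = 0.0111) and Spearman's rho was -1.0 (exact permutation p = 0.00278). This relation was examined after the values had been seen. Without HS_L library 1 and LS_L library 3, the libraries farthest from the median read number, r was -0.974 over 4 libraries. Within each group the order was the same. Transcript starts showed a similar r of -0.964 and transcript ends an r of -0.865. Exon skipping events, in contrast, had an r of 0.476 and alternative exon ends an r of -0.197. Why the number fell with assigned reads was not tested.

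**Figure D1:**
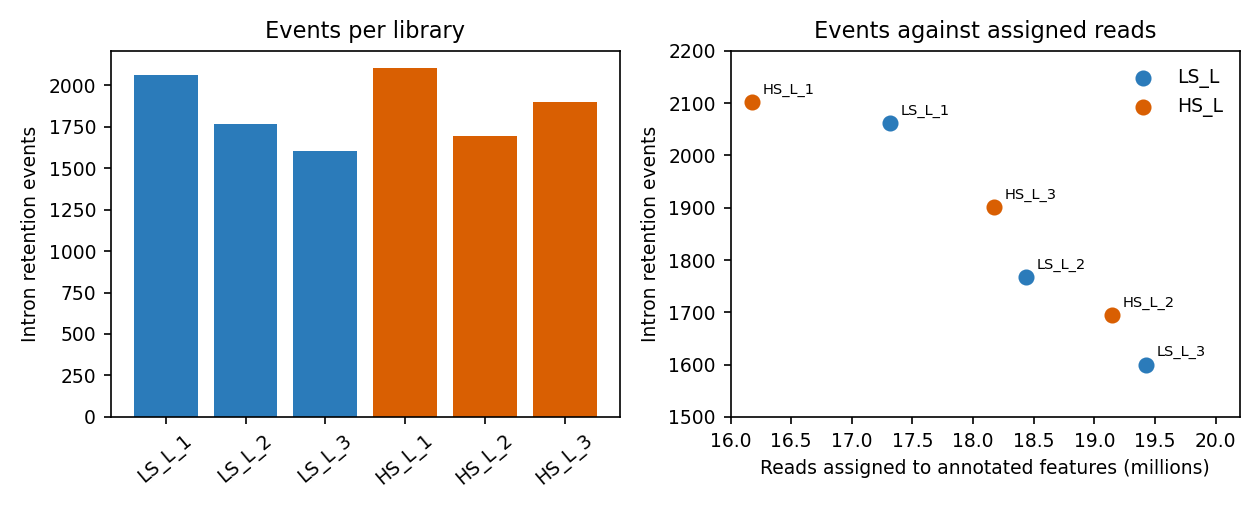
Left, number of intron retention events in each of the 6 libraries, as bars. Right, the same number against the reads assigned to annotated features (axis in units of 1000000), 1 point per library. The number falls from 2102 in HS_L library 1 to 1600 in LS_L library 3 as the reads rise, and the LS_L and HS_L points lie along the same line.

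Most intron retention events were private to 1 library. Of the 6131 events, 3969 (64.7%) were listed in 1 library, 1014 in 2, 371 in 3, 247 in 4, 151 in 5 and 379 (6.18%) in all 6. Exon skipping events, the removal of a whole exon, were far more often shared, with 52.5% of 2552 events in all 6 libraries, and for alternative exon ends the share was 33.2%. Sharing within a salinity group and between groups covered the same range. Libraries of the same group shared, pair by pair, between 21.9% and 26.9% of the events listed in either (median 24.0% over 6 pairs), and 2 libraries of different groups shared between 22.2% and 25.5% (median 24.0% over 9 pairs). Events listed in all 3 LS_L and in no HS_L library numbered 18 (0.294%), beside 0.17% of the events of all classes. Events listed in all 3 HS_L and in no LS_L library numbered 26 (0.424%), beside 0.176% of all classes. When listings with a retained form below 1 FPKM were counted as absent, the counts were 16 and 8. These are not subsets of the 18 and 26, since an event listed below 1 FPKM in the other group then counts as absent there. No share over all classes is given at this cutoff.

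**Figure D2:**
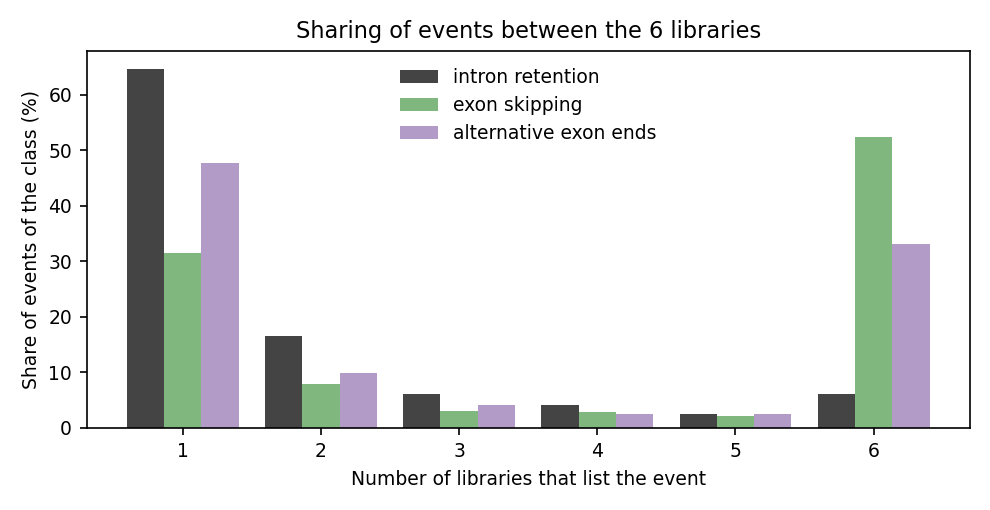
Share of the events of a class, in %, by the number of libraries that list them, for intron retention, exon skipping and alternative exon ends. For intron retention the bar at 1 library is at 64.7% and that at 6 libraries at 6.18%, and for exon skipping the bar at 6 libraries is at 52.5%.

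The retained regions were short. The events of a single intron numbered 5492, and 639 spanned several introns. The single introns had a median length of 99 bases, quartiles of 83 and 189 bases and a range from 30 to 4718 bases. Introns whose length is divisible by 3, which keep the reading frame if they hold no stop codon, made up 33.5% of all. The share differed with recurrence. It was 32.1% (95% Wilson interval 30.6 to 33.7) among the 3473 introns seen in 1 library, 46.2% (38.2 to 54.3) among the 143 seen in 5 and 45.6% (40.6 to 50.6) among the 371 seen in all 6. The median length was 99 bases for the introns in 1 library, 122 bases for those in 5 and 104 bases for those in all 6. Among the introns in all 6 libraries the share was 40.8% (33.7 to 48.4) where the retained form was above 0 in every library and 27 of 54 (37.1% to 62.9%) where it was at 0 in every library. Among the introns listed in 5 or 6 libraries the share was 44.7% where the host overlapped no other annotated feature (55 of 123) and 46.0% where it did (180 of 391). These are descriptions, since introns of 1 gene are not independent, and the intervals cover counting error only.

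**Figure D3:**
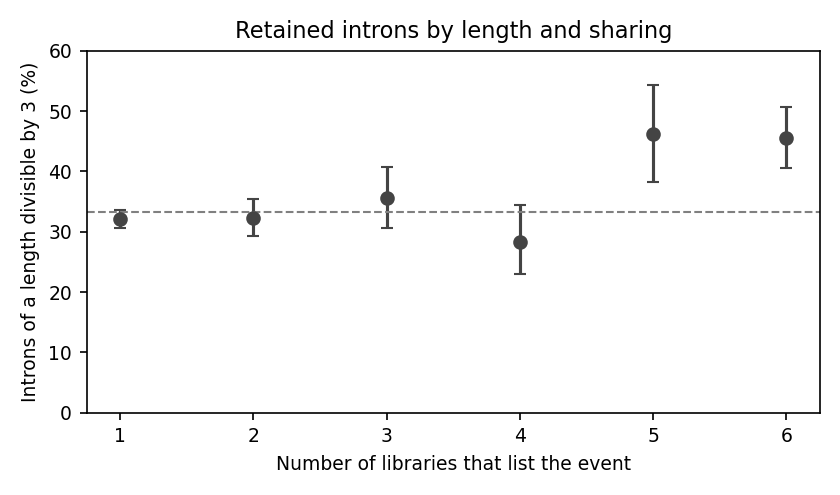
Share of retained single introns with a length divisible by 3, in %, by the number of libraries that list the event. Points are shares, bars are 95% Wilson intervals, and the dashed line marks 1 in 3. The points for 5 and 6 libraries, at 46.2% and 45.6%, lie above those for 1 to 4 libraries, which run from 28.3% to 35.5%.

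Recurrent events differed from private ones in their annotation and in their values. The host is the annotated feature that the listings name most often for the event. Where they name none, it is the feature with the largest overlap on the same strand. The host overlapped another feature for 87.3% of the events in all 6 libraries and for 42.4% of those in 1 library. FPKM (fragments per kilobase of transcript per 1000000 fragments) is here the level of the assembled transcripts that carry a form, and an FPKM of exactly 0 can be a failed estimate. Of the retained values of the 379 recurrent events, 34.6% were listed at 0, against 0.605% for the private events. The retained form was above 0 in all 6 libraries for 173 of the 379 events, at 0 in all for 56, and mixed for 150. Both forms were above 0 in every library for 74 events.

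The retained share is the FPKM of the retained form as a percentage of both forms. Its median over the events of a library was between 39.5% and 44.1%. For the events listed in all 6 libraries, the medians were 55.8%, 59.0% and 56.6% in the LS_L libraries and 54.1%, 55.7% and 58.2% in those of the HS_L group. The groups overlapped, and the LS_L mean of 57.1% ± 1.61 (SD, n = 3) did not differ from the HS_L mean of 56.0% ± 2.06 (SD, n = 3) beyond the spread between tanks (exact permutation test, two-sided, p = 0.40, adjusted p = 0.70). Among the 74 events with both forms above 0, the median range of the share of an event over the 6 libraries was 27.9 percentage points.

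The hosts numbered 3293, of which 1886 carried 1 event and 186 carried 5 or more. Hosts were more often transcribed in the liver than other features, with an RPKM of at least 1 for 50.5% of hosts and 22.4% of the other features in reach. Of the 4919 features in reach with a mean RPKM of at least 1, 1662 (33.8%) were hosts, and the median RPKM was 1.05 for hosts and 0.0184 for the other features in reach. Non-coding features made up 114 of the hosts. Relative to 100 listed transcript starts, the number of events was lowest on the unplaced scaffolds (16.1) and the W chromosome (19.0), and highest on chromosome 8 (32.4) and the Z chromosome (30.1).

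Dync2i1 and smarca4a were the hosts with the most events, followed by flt1 and 2 others that tied with it. The host features of dync2i1, smarca4a and flt1 were named by their position, so these genes are not certain. Dync2i1, an intermediate chain of the dynein that moves cargo within cilia, held 16 events on chromosome 3 and had an RPKM between 1.59 and 4.48. Of these, 14 were seen in 1 library, and the libraries listed 7, 2 and 2 of them in the LS_L group and 3, 5 and 1 in the HS_L group. Smarca4a, the ATPase of a chromatin remodelling complex, held 12 events on chromosome 17, with 7, 2 and 3 in the LS_L and 1, 0 and 7 in the HS_L libraries. Of these, 3 lay outside the annotated feature, past its higher coordinate (15687336), which on the minus strand is the side of its start. Flt1, a receptor of vascular endothelial growth factor, held 11 events on chromosome 3, of which HS_L library 1 alone listed 8. None of the events of dync2i1, smarca4a and flt1 was shared by all 6 libraries, and their retained forms reached at most 1.48, 6.22 and 1.72 FPKM. LOC103383118 and LOC103385685 tied with flt1 at 11 events, of which 2 and 1 were listed in all 6 libraries, and had a mean RPKM of 0 and 9.16.

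The highest retained forms belonged to few genes. Among the 10 events with the highest median FPKM of those listed in all 6 libraries, 3 lay in srsf2a. This gene encodes an SR protein that binds exons and promotes splicing. The host of the 3 events was a non-coding feature that was named srsf2a by its position and overlaps 5 others. For the 251-base event of srsf2a on the minus strand of chromosome 8 (6013183 to 6013433, assembly Cse_v1.0), the retained form was at 63.1, 27.9 and 23.8 FPKM in the LS_L libraries and 38.7, 21.0 and 29.6 FPKM in the HS_L libraries. The spliced form was at 0 in 5 libraries and at 4.07 FPKM in HS_L library 2 and the retained share was 83.8% there and 100% in the others. An overlapping event of 346 bases from the same start shared its retained transcripts with this one in 4 libraries. The third, of 440 bases (6012655 to 6013094), was near balance, with a retained share of 49.5%, 45.2% and 55.2% in the LS_L and 36.1%, 37.1% and 51.3% in the HS_L libraries. The groups overlapped for each of the 3 events.

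The highest of all was a 99-base intron of LOC103386906 on the minus strand of chromosome 12 (906116 to 906214). Its retained form was at 242, 46.5 and 45.4 FPKM in the LS_L libraries and at 142, 22.2 and 51.4 FPKM in the HS_L libraries. Library 1 stood high in both groups. The retained share was between 23.1% and 45.7%. Etfb, the beta subunit of the electron transfer flavoprotein of mitochondria, carried events of 750 and 72 bases on the minus strand of chromosome 13 (3340609 to 3341358 and 3341287 to 3341358) that share 1 retained form. As listed, before scaling by the library factors, that form was at 20.1, 19.4 and 19.6 FPKM in the LS_L group. It lay at 18.8, 14.0 and 29.5 FPKM in the HS_L group. Mcts1, a factor of translation reinitiation, had an 84-base event on chromosome 15 (1206272 to 1206355, plus strand) with 26.6, 24.4 and 23.8 FPKM in the LS_L and 21.1, 14.2 and 20.3 FPKM in the HS_L libraries, and an adjusted p of 0.924 (limma). Its groups did not overlap, and the log2 difference was 0.37.

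Insig1 encodes a membrane protein of the endoplasmic reticulum that holds back the activation of sterol synthesis genes. Its 100-base event lay on the minus strand of chromosome 3 (15652105 to 15652204). The retained form was at 16.8, 44.4 and 31.2 FPKM in the LS_L libraries and 10.2, 16.4 and 11.99 FPKM in the HS_L libraries. All LS_L values lay above the HS_L values as listed, but after scaling by the library factors LS_L library 1 lay below HS_L library 2. The log2 difference was 1.07 ± 0.46 (SE) on the scale of FPKM + 1 and did not pass the test (limma, adjusted p = 0.870). The spliced form was higher in the LS_L libraries too, at 11.4, 14.2 and 16.7 FPKM against 0, 6.23 and 4.58 FPKM. The remaining events among the 10, in slc25a34, a mitochondrial carrier, and in LOC103393708, had retained forms of 9.55 to 30.4 FPKM and 6.80 to 23.0 FPKM, with overlapping groups. For 8 of these 10 events the host feature was at RPKM 0 in every library. These hosts overlap 1 to 5 other features, and reads were counted in a mode that leaves out reads shared by features. The host of LOC103386906 was at RPKM 0.0481 and 0.0902 in LS_L libraries 1 and 2 and at 0 in the others. The hosts of LOC103386906, mcts1 and slc25a34, like that of srsf2a, were named by position.

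**Figure D4:**
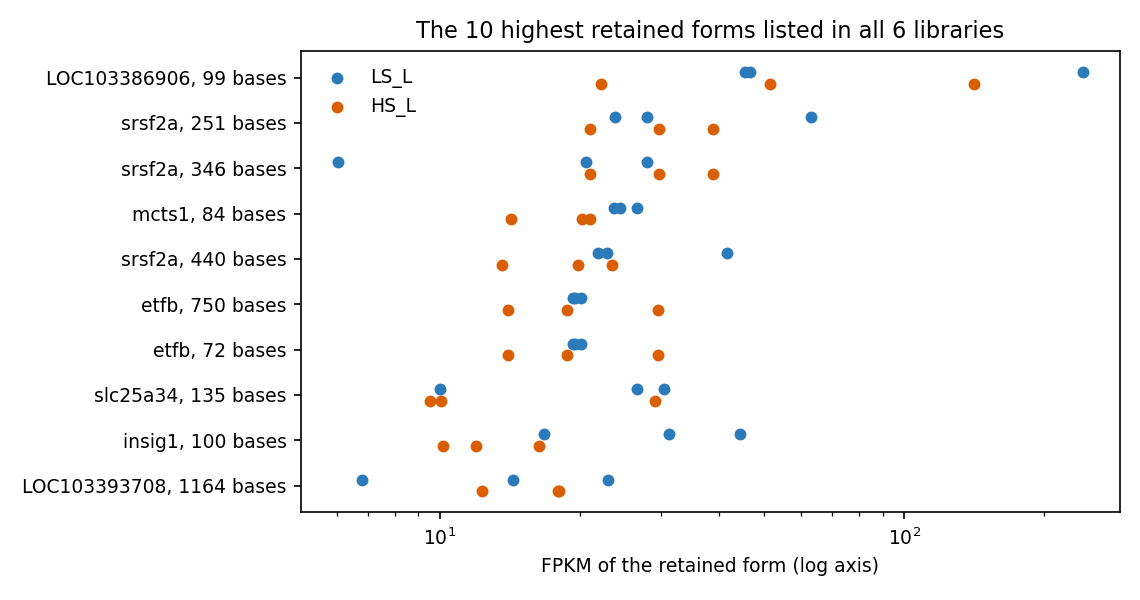
FPKM of the retained form, on a log axis, for the 10 intron retention events with the highest median among those listed in all 6 libraries. Each point is 1 library. LS_L and HS_L points interleave in most events, and for LOC103386906 the values run from 22.2 to 242.

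To ask which retained forms differed with salinity, FPKM was fitted over all event classes, in the events listed in all 6 libraries with a mean of at least 1 FPKM. Of 177 intron retention events tested, in 163 hosts, 1 was called higher with low salinity and 0 were called lower, at an adjusted p under 0.05 (limma with Benjamini-Hochberg adjustment) and a log2 difference beyond 1. Over all 8293 event forms tested, 0.0965% were called higher and 0.0362% lower. Retained and spliced forms, and included and skipped forms, count separately in these and in the following shares of all events. An unadjusted p under 0.05 was reached by 7 of the 177 events (3.95%), 4 higher and 3 lower, beside 5.55% of all events. On the scaled values the groups did not overlap for 18 events (10.2%), 11 higher and 7 lower, beside 11.3% of all events. The median log2 difference was 0.05, beside 0.03 for all events. Both shares lay near those of all events. Of the 177 events, 13 had the same host and the same retained values as another.

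The event called was a 644-base event at the start of aldh8a1, which encodes an aldehyde dehydrogenase. The host feature was named by its position and overlaps 4 other features, so the gene is not certain. It lay on the plus strand of chromosome 7 (9179811 to 9180454, Cse_v1.0). The retained form was at 5.86, 7.97 and 6.80 FPKM in the LS_L libraries and was listed at 0 in all 3 HS_L libraries. The spliced form was at 42.6, 48.7 and 35.3 FPKM in the LS_L libraries and at 72.7, 78.5 and 67.7 FPKM in the HS_L libraries. The groups did not overlap for either form, and they lay in opposite directions. The retained share was 12.1%, 14.1% and 16.1% in the LS_L libraries and listed at 0 in the HS_L libraries.

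The fitted log2 difference of the retained form of aldh8a1 was 2.93 ± 0.28 (SE; limma, adjusted p = 0.0358). No fold change is given, since the HS_L group was listed at 0 and the fitted value depends on the pseudocount of 1. The HS_L values at 0 also added no spread to the fit. The log2 difference of the spliced form of aldh8a1 was -0.84 ± 0.23 (SE) and did not pass (limma, adjusted p = 0.654). The call of the retained form was lost when any library other than LS_L library 1 was left out (adjusted p between 0.0888 and 0.235 without each of the other 5), with a pseudocount of 0.1 (adjusted p = 0.121) and with the replicate number as a block (limma, adjusted p = 0.282). The pancreas genes summed to 706 and 2428 in HS_L libraries 1 and 2 and to at most 63.6 in the other 4, and their part in this difference was not tested. The host was at RPKM 0 in all libraries, so its own level gives no base for the event. In 1 other event, a 78-base intron of prkcq on chromosome 8, picked out after its values were seen, the retained form was also above 0 in all LS_L libraries (0.763, 0.2995 and 0.197 FPKM) and at 0 in all HS_L libraries, at levels below the minimum for testing.

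**Figure D5:**
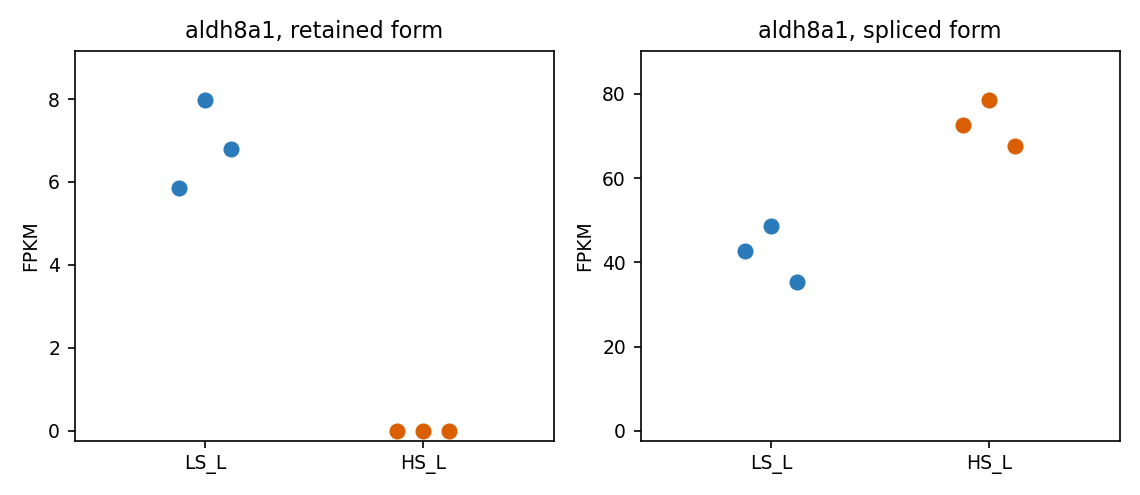
FPKM of the retained form (left) and the spliced form (right) of the 644-base aldh8a1 event, 1 point per library. The retained form lies between 5.86 and 7.97 in the LS_L group and at 0 in the HS_L group, and the spliced form lies between 35.3 and 48.7 in the LS_L group and between 67.7 and 78.5 in the HS_L group.

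Among the other events whose groups did not overlap, pmm2 showed the next largest difference upward. The host feature was named by its position, overlaps 3 other features and was at RPKM 0 in every library, so the gene is not certain. Pmm2 encodes phosphomannomutase, which makes mannose 1-phosphate for protein glycosylation. The retained form of its 80-base event on chromosome 9 (18465400 to 18465479, plus strand) was at 4.02, 11.4 and 12.1 FPKM in the LS_L libraries and at 1.44, 1.51 and 1.92 FPKM in the HS_L libraries (log2 difference 1.80 ± 0.49, SE; limma, adjusted p = 0.654). The spliced form was at 0 in 5 libraries and at 0.207 FPKM in HS_L library 3 and the retained share was 100% in those 5 libraries and 90.3% in the other. For a 97-base intron of LOC103388112 on chromosome 13 the retained form was at 7.57, 3.33 and 2.01 FPKM in the LS_L libraries and at 0.935, 0.489 and 0.722 FPKM in the HS_L libraries (log2 difference 1.45, limma, adjusted p = 0.6002). Its retained share was 63.8%, 100% and 69.6% in the LS_L and 21.2%, 59.9% and 41.2% in the HS_L libraries, and here too the groups did not overlap. LOC103385685 and tmc5, a transmembrane channel-like protein, followed with log2 differences of 0.90 and 0.73 (limma, adjusted p = 0.870 and 0.915). The 69-base event of LOC103385685 lay in the opposite direction on the other measures. Its retained share was 41.7%, 22.3% and 18.3% in the LS_L and 45.2%, 77.6% and 45.7% in the HS_L libraries, without overlap. Its log2 difference was -1.63 ± 0.44 (SE) relative to the host RPKM and -1.23 ± 0.52 (SE) relative to the spliced form, and neither passed (limma, adjusted p = 0.881 and 0.946). The host RPKM was itself higher with low salinity, at 7.20, 22.1 and 19.8 in the LS_L and 2.52, 0.642 and 2.74 in the HS_L libraries.

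The largest difference downward was that of aamdc, in 2 events of 480 and 483 bases on chromosome 4 that start at the same base (14323430) and share 1 retained form. It was at 0, 3.59 and 0 FPKM in the LS_L libraries and at 6.95, 5.84 and 5.50 FPKM in the HS_L libraries. The log2 difference was -2.12 ± 0.61 (SE; limma, adjusted p = 0.711), and LS_L library 2 stood apart from the other LS_L libraries. A 123-base intron of LOC103397589 on the Z chromosome followed with 2.20, 3.03 and 1.25 FPKM in the LS_L and 6.22, 3.57 and 5.34 FPKM in the HS_L libraries (log2 difference -1.0, limma, adjusted p = 0.749). Its retained share was 28.0%, 40.4% and 29.1% against 58.3%, 42.7% and 67.2%. LOC103384362 and ripk1l, a kinase gene named for its likeness to ripk1, had log2 differences of -0.62 and -0.55 (limma, adjusted p = 0.870 and 0.915). None of these passed the test.

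The retained form was also set against the level of its host and against its spliced form. Relative to the host RPKM, 59 intron retention events could be tested and 0 were called in either direction. Over 4509 event forms of all classes, counted separately as above, 0.0% were called in each direction. An unadjusted p under 0.05 was reached by 4 of the 59 events, beside 3.79% of all. The groups did not overlap for 6 of them (10.2%), beside 10.8%. For the ratio of the retained to the spliced form, 223 events were tested. The aldh8a1 event was called higher (log2 difference of the ratio 3.78 ± 0.28, SE; limma, adjusted p = 0.00507) and 0 were called lower, beside 0.116% higher and 0.0% lower among 859 pairs of all classes. The call was lost without LS_L library 2, LS_L library 3 or HS_L library 3 (adjusted p = 0.0531, 0.0513 and 0.0702) and with the replicate number as a block (limma, adjusted p = 0.101). Of the 223 events 7 had an unadjusted p under 0.05, beside 3.96% of all pairs, and in 22 (9.87%) the groups did not overlap, beside 10.4%.

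Some events were listed in every library of 1 group and in none of the other. Of the 18 found in the LS_L group, the highest was an 89-base intron of anxa4, a calcium-dependent membrane-binding protein, on chromosome 14 (28521665 to 28521753, minus strand). Its retained form was at 120, 24.3 and 28.8 FPKM, with a retained share of 35.2%, 16.1% and 18.4%. The anxa4 feature itself was at RPKM 393, 172 and 159 in the LS_L libraries and 106, 125 and 120 in those of the HS_L group, so the gene was transcribed in both groups and its groups did not overlap. The next was a 134-base event of bco2l, related to an enzyme that cleaves carotenoids, on the Z chromosome (19283687 to 19283820, plus strand). Its retained form was at 7.22, 8.63 and 9.12 FPKM, with a retained share of 18.1%, 17.5% and 18.0%. The RPKM of bco2l ran the other way, at 55.7, 63.3 and 64.5 in the LS_L and 114, 94.6 and 88.1 in the HS_L libraries. LOC103380473, LOC103381051 and nub1, whose product lowers the level of the ubiquitin-like NEDD8, followed with retained forms of 1.86 to 6.50 FPKM. The host of nub1 was named by its position, so the gene is not certain.

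Of the 26 events listed in every HS_L and no LS_L library, the highest were 2 overlapping events of LOC103389920 on chromosome 14 that share a retained form of 6.30, 4.68 and 12.2 FPKM. An 85-base intron of khnyn on chromosome 1 (20779051 to 20779135, minus strand) followed. Khnyn encodes, in humans, a nuclease that works with an antiviral zinc finger protein. Its retained form was at 4.51, 5.88 and 4.08 FPKM with a retained share of 28.7%, 17.4% and 24.7%. The khnyn feature was at RPKM 57.6, 21.0 and 17.2 in the LS_L and 33.7, 44.4 and 28.7 in the HS_L libraries, and these groups overlapped. Cep164, a protein of the centriole from which cilia grow, had a 485-base event at 6.02, 1.28 and 6.48 FPKM. The hosts of LOC103389920 and cep164 were named by their position, so these genes are not certain. The level of an event in a library that does not list it is not known to be 0. Bulk libraries cannot tell fewer cells of a type from less RNA per cell.

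Some genes of the splicing machinery carried events listed in all 6 libraries. Of 42 splicing factor genes in reach, 26 had an RPKM of at least 1, and 21 of the 42, counted at any RPKM, carried events. Of all 17803 features in reach, at any RPKM, 3293 were hosts. Among those with an RPKM of at least 1 the share was 33.8%. These bases count features, and a gene can have several. The genes held 56 events, of which 13 were in all 6 libraries, beside 6.18% of all intron retention events. The 13 are not independent. The sf3b1 events among them have the same retained values, and several srsf2a events overlap. That of snrnp200 was above 0 in LS_L library 2 only. Beside srsf2a, high values were found in the SR protein genes srsf5b and srsf1a. A 521-base event of srsf5b on chromosome 7 was listed in 2 libraries, at 24.6 FPKM in LS_L library 1 and 34.9 FPKM in HS_L library 1, with retained shares of 74.2% and 82.5%. A 217-base event of srsf1a on chromosome 4 was listed at 19.3 FPKM in LS_L library 1 and 11.2 FPKM in HS_L library 2. The listings per library were 28, 29 and 26 in the LS_L and 28, 31 and 23 in the HS_L group. Events seen in only 1 of the groups were 10 for each.

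Of the genes of nonsense-mediated decay, 3 of 6 in reach carried 7 events. The 3 were counted at any RPKM, as were the 3293 hosts among all 17803 features in reach. Among the features in reach with an RPKM of at least 1, 33.8% were hosts. Smg9, a partner of the kinase that starts the decay, had an 80-base event in all 6 libraries at 0.891 to 2.19 FPKM. Its spliced form was at 0 in 5 of them.

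The levels of these genes were tested in the RPKM table. Of 53 features of splicing factors (48 genes), 0 passed the test in either direction, beside 0.043% higher and 0.0% lower among 9302 features. An unadjusted p under 0.05 was reached by 3, all higher in the LS_L group, beside 6.58% of all features. The median log2 difference was 0.17, beside 0.03 over all features, and 42 of the 53 lay above 0 (share over all features not given). The 3 were eftud2, a GTPase of the spliceosome, at RPKM 6.67, 6.08 and 5.13 in the LS_L and 4.30, 3.44 and 3.76 in the HS_L libraries (limma, adjusted p = 0.638), and snrpd2 and snrpg, both of the ring that coats spliceosomal RNAs, with log2 differences of 0.61 and 0.76 (limma, adjusted p = 0.724 and 0.759). Of 7 tested genes of nonsense-mediated decay 0 passed. Their median log2 difference was -0.0846, with 2 of the 7 above 0 and 5 below. An unadjusted p under 0.05 was reached by 1 of them. This was magoh, of the complex that marks exon junctions, with RPKM 76.3, 42.9 and 41.4 in the LS_L and 44.8, 27.01 and 28.6 in the HS_L libraries (log2 difference 0.65, limma, adjusted p = 0.715). Its groups overlapped as listed but not after scaling by the library factors.

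The highest retained forms of the cholesterol synthesis genes were listed in LS_L libraries, where these genes were high. Of 14 such genes in reach, 9 carried 13 events, none in all 6 libraries. The 9 were counted at any RPKM, and 11 of the 14 had an RPKM of at least 1. Of all 17803 features in reach, at any RPKM, 3293 were hosts. The share of hosts among those with an RPKM of at least 1 was 33.8%. The summed RPKM of the 14 genes was 815, 1176 and 1039 in the LS_L libraries and 183, 177 and 87.4 in those of the HS_L group, without overlap. The libraries listed 7, 5 and 0 of the events in the LS_L group and 4, 2 and 1 in the HS_L group. Events seen only in the LS_L group were 8, those seen only in the HS_L group 3, and 2 were seen in both, beside 2077, 2330 and 1724 of all intron retention events. LS_L library 3 listed none of them although its summed RPKM was among the highest.

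The highest was a 92-base intron of hmgcra, which encodes the reductase that sets the rate of cholesterol synthesis, on the Z chromosome (983380 to 983471, minus strand). It was listed at 85.6 FPKM in LS_L library 1 and 85.0 FPKM in LS_L library 2, with retained shares of 69.1% and 55.8%. The hmgcra feature was at RPKM 174, 200 and 172 in the LS_L and 60.4, 47.7 and 12.7 in the HS_L libraries. A 69-base intron of pmvk, the second kinase of the mevalonate pathway, was at 74.3 FPKM in LS_L library 1, and an 89-base intron of dhcr7, the enzyme of the last step to cholesterol, was at 26.7 FPKM in LS_L library 2. Lss, the cyclase that forms lanosterol, had a 61-base intron at 7.23 FPKM in LS_L library 2.

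Of 41 ribosomal protein genes in reach, 39 had an RPKM of at least 1 and 1, rpl21, carried an event. Of all features in reach with such an RPKM, 33.8% were hosts. That 246-base event on chromosome 3 was listed in 5 libraries at 2.50 to 5.64 FPKM with a retained share of 77.2% or more. It lay in a feature with an RPKM of 3.62 to 6.84. This feature was named rpl21 by its position, so the gene is not certain. Of 16 genes of plasma proteins in reach, 4 carried 7 events, each in 1 library only. These were counted at any RPKM, as were the 3293 hosts among all 17803 features in reach. A 91-base intron of c7a, of the terminal complement complex, was at 186 FPKM in LS_L library 2. A pair of introns of c8a, of the same complex, shared a retained form at 123 FPKM in LS_L library 1, and a 122-base intron of f9a, coagulation factor IX, was at 35.9 FPKM in HS_L library 2. The RPKM of c7a was 472 to 532 in the LS_L and 669 to 1124 in the HS_L libraries, so the gene was high in libraries that did not list the event. Itih6 had an RPKM of at most 0.0125 and an event at 0.552 FPKM in HS_L library 2.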

How the data were processed

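RNA of pooled livers was sequenced as paired reads. The authors aligned the reads with TopHat2 2.0 and Bowtie2 2.0.6, kept uniquely placed reads and ran HTSeq (union mode) to count them for each feature. The deposited values are RPKM per feature and library, a signal per group (the authors' mean of reads over size factors), and FPKM of assembled transcripts per event and library. The tool of the event listings is not given in the sources used here. Reads were recovered from the RPKM and feature length, with at least 99.9% of the values whole within 0.1 reads, and were used for depth only. No genome sequence was used here.

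Rows that repeat a pattern (3336 of 230116) were counted once, and different patterns of the same form at 1 position were summed over all intron retention types, where the design had summed within a type. The main test was limma 3.58.1 in R 4.3.3 (trend and robust) on log2 of FPKM, scaled by medians of ratios, plus 1, in events listed in all 6 libraries with a mean of at least 1. P-values were adjusted by Benjamini-Hochberg over all event classes and called under 0.05 with a log2 difference beyond 1. Library values were compared by exact permutation in scipy 1.17.1. In simulated data the spreads of the real events of all classes were shuffled between events. There, 79 of 200 events changed by a log2 difference of 2 were called (39.5%), and 8 unchanged ones were. This gives no recovery rate for intron retention events alone. Retained shares leave out events with both forms at 0. Genes were named from RefSeq by accession for 20198 features and by an overlap of at least 50% for 12889, while 1664 were not named. The members and lists were chosen with earlier results of these data known. Named are the 10 highest events listed in all libraries, each event called, the 5 largest differences without overlap in each direction, the 5 highest in 3 libraries of 1 group only, the 3 hosts with most events, and the 5 highest of each gene list by the median over the libraries that list them. Some results under this rule are not reported here. Of the fixed ovary markers, those starting with fabp and look-alike symbols were left out. Alternatives were the pseudocount, filter, scaling, match, event types and each library left out.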

Additional observations from a re-analysis of the deposited data

How the results depend on the processing

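No difference in event number or share passed the test under any alternative, which 3 against 3 libraries did not allow. With a retained form of at least 5 FPKM the number was 13.3 events higher in the LS_L group, and the share was 0.0675 and 0.0612 percentage points higher with at least 1 and at least 5 FPKM. Leaving out 1 library moved the difference in number between -216 and 15.2 events and that in share between -0.559 and 0.0545 percentage points. With listings below 1 FPKM counted as absent, 110 events were in all libraries and 8 in the HS_L group only. With 1 library left out these counts ran from 391 to 414 for all libraries, from 32 to 89 for the LS_L group only and from 37 to 131 for the HS_L group only, where fewer libraries had to be matched.

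The count of retained forms called was 0 with a pseudocount of 0.1, with no filter, with a mean of at least 5 (which removed the aldh8a1 event), and with missing values set to 0. It was 0 or 1 with 1 library left out. The cause was not tested in the other cases. Same-numbered libraries had correlations of their deviations of 0.109, 0.0898 and 0.0757 in the event FPKM and of 0.173, 0.165 and 0.231 in the RPKM. HS_L libraries 1 and 3 correlated best with the LS_L library of the same number in both. HS_L library 2 correlated best with LS_L library 3 in both (0.124 and 0.220). The labels state no shared batch, so the main fits have no block. With a replicate block the retained forms called were 0 and the retained over spliced ratios called were 0. The ratio count with 1 library left out was 0 or 1. For the retained form of aldh8a1, the adjusted p (limma) over all alternatives ran from 0.0202 to 1.0, and for its ratio from 0.00116 to 0.101. The relative host levels and the splicing and decay genes gave 0 calls under every alternative. FPKM carries no read number per event, so the depth behind a single event is unknown.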
